A study of Mus musculus with 12 samples.

Results

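MHC class II presentation was followed through 7 genes in the tongues of carcinogen-treated mice: H2-Aa, H2-Ab1, H2-Eb1, H2-DMa, H2-DMb1, Cd74 and Ciita. They were chosen by name for their known roles, but with earlier results of these data known. Each was on a row of every table, out of 32498 named rows. All 7 passed the filter on low values that left 16847 genes for testing. RNA-seq was performed on 12 tongue libraries, 6 from mice given vehicle and 6 from mice given gallic acid (GA), a plant phenol. All mice were C57BL/6, bought at 5 weeks of age, and all drank the oral carcinogen 4-nitroquinoline 1-oxide (4NQO) at 100 µg/mL for 16 weeks. From week 4 the GA group was gavaged with 100 mg/kg GA 5 times per week, and the vehicle group with vehicle on the same days. Age at collection and the sex of the mice are not given in the sources used here, and the labels number the replicates without naming animals, so a library stands here for 1 mouse. If some libraries shared an animal, the p-values would measure technical spread in part.

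Class II molecules display peptides from proteins taken up by the cell to CD4 T cells. The alpha and beta chains assemble in the endoplasmic reticulum around the invariant chain, encoded by Cd74, which blocks the groove until endosomal proteases trim it to a short fragment. The H2-DM heterodimer then exchanges that fragment for a peptide. Ciita, the class II transactivator, does not bind DNA itself but docks on factors held at the promoters of these genes. Dendritic cells, B cells and macrophages carry class II at rest, and interferon gamma can induce it in epithelial cells.

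The libraries held 18040171 to 25192493 reads each, recovered from the values of low genes. Values are in scaled FPKM, which is reads divided by exon length and library total, brought to a common scale between libraries. The tissue label names tumor and tumor-associated material of the tongue. Epithelial and muscle genes were abundant in every library: 8 epithelial genes such as Krt5 summed to between 14809 and 41901 FPKM, and 8 muscle genes such as Acta1 to between 1346 and 11277 FPKM. Lipf, a lipase of tongue glands, was above 100 FPKM in vehicle libraries 3 and 5 and in GA library 2. Y-linked genes had reads in 4 of the 6 vehicle libraries (replicates 1 to 4) and in 1 GA library (replicate 1). The other 7 libraries had none. Xist, the X-linked gene of the sex-linked list, was at 18.7 to 43.9 FPKM in those 7. It was at most 0.030 FPKM in the libraries with Y-linked reads. By these genes the groups were unbalanced for sex, which is partly confounded with treatment. In bulk tissue, fewer class II-bearing cells and less class II RNA per cell cannot be told apart.

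Cd74 was the most abundant of the 7 genes, with 98.7 ± 34.0 FPKM (SD, n = 12 libraries), above 97.4% of all tested genes. Its levels in the vehicle libraries 1 to 6 were 90.4, 137, 112, 60.9, 71.0 and 134 FPKM. In the GA libraries 1 to 6 they were 164, 117, 88.0, 77.6, 78.7 and 53.7 FPKM. GA library 1 was the highest of all 12 and GA library 6 the lowest, so the GA group spanned the whole vehicle group. Cd74 lies on chromosome 18 of GRCm38 (60803848 to 60812652, forward strand), and its level rested on 2324 to 5873 reads per library.

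The classical chains came next. H2-Ab1, the beta chain of I-A, had 32.7, 49.2, 36.2, 30.4, 26.2 and 47.1 FPKM in vehicle libraries 1 to 6. It had 53.3, 35.1, 36.1, 31.6, 26.2 and 24.4 FPKM in GA libraries 1 to 6. H2-Eb1, the beta chain of I-E, had 33.5, 48.8, 39.3, 25.4, 26.3 and 51.7 FPKM with vehicle. With GA it had 51.8, 37.3, 41.3, 27.7, 26.1 and 17.1 FPKM. Both genes were high in vehicle libraries 2 and 6 and in GA library 1, and the groups overlapped. H2-Aa, the alpha chain of I-A, had 14.6, 24.8, 18.9, 10.9, 12.1 and 23.9 FPKM with vehicle. Its GA libraries held 28.5, 20.5, 16.5, 14.7, 13.2 and 9.16 FPKM, and the same 3 libraries were the highest. I-A pairs H2-Aa with H2-Ab1, whereas the I-E alpha chain gene H2-Ea, whose promoter is deleted in C57BL/6 mice, was listed at 0 in 10 of 12 libraries and reached at most 0.0912 FPKM. H2-Eb1 RNA was thus present at 35.5 ± 11.4 FPKM (SD, n = 12) with almost none of its alpha chain partner.

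The peptide exchange genes were expressed at lower levels. H2-DMb1 had 3.79, 7.55, 4.49, 10.6, 5.0 and 6.33 FPKM in vehicle libraries 1 to 6 and 10.4, 5.03, 6.40, 3.64, 3.21 and 3.99 FPKM in GA libraries 1 to 6. H2-DMa had 2.89, 3.41, 2.80, 1.57, 1.62 and 3.46 FPKM with vehicle and 4.70, 1.98, 1.67, 2.25, 1.48 and 1.41 FPKM with GA. In H2-DMa, GA library 1 stood above the other 5 of its group, of which the next was at 2.25 FPKM. Vehicle library 4 was the highest of all 12 for H2-DMb1, although it was among the 3 lowest for 5 of the other 6 genes.

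Ciita was the least abundant, with 0.475, 1.28, 0.592, 0.292, 0.559 and 0.847 FPKM with vehicle and 0.981, 0.524, 0.557, 0.616, 0.336 and 0.350 FPKM with GA. That is 65 to 226 reads per library, and only 21.1% of tested genes had a lower mean level. Its lowest value was in vehicle library 4 and its highest in vehicle library 2.

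**Figure D1:**
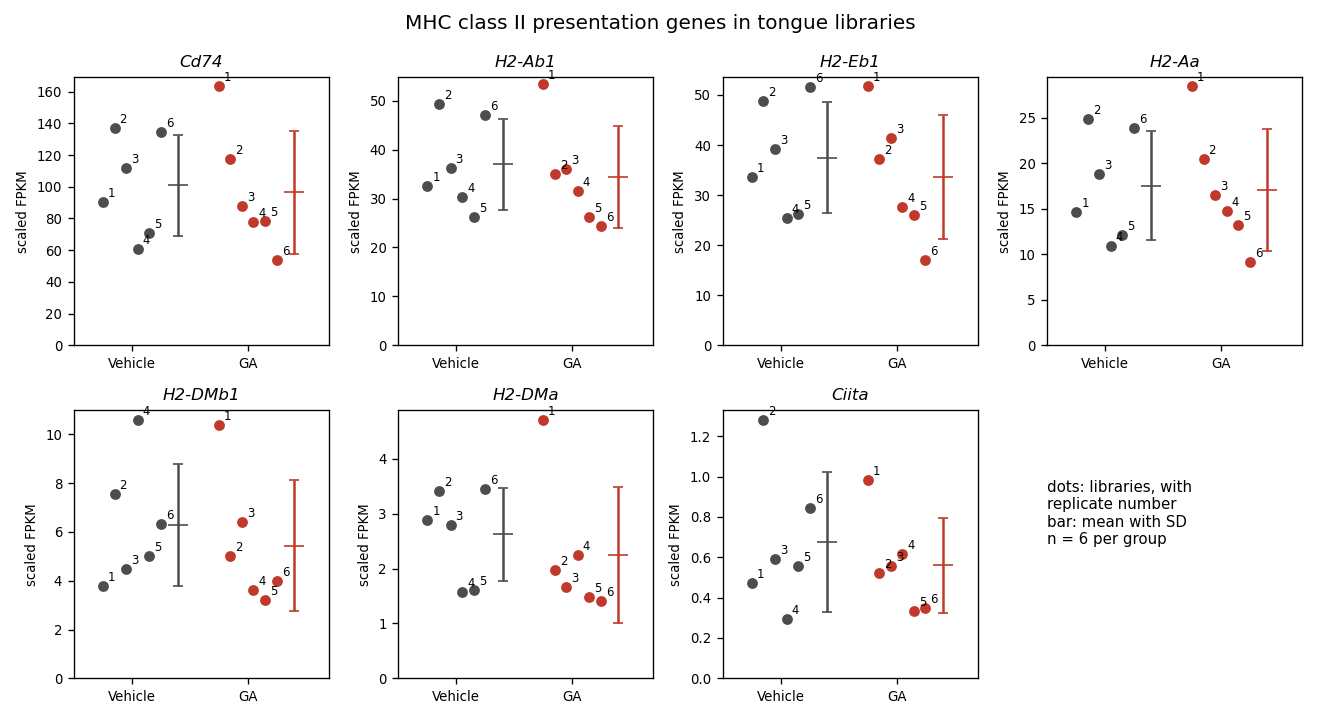
Level of each class II gene in scaled FPKM (vertical axes, from 0) in the 6 vehicle (grey) and 6 GA (red) libraries, numbered by replicate, with the mean and SD of each group beside them. The groups overlap in every panel, and GA library 1 is the highest of the GA group for all 7 genes.

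The order of levels was nearly the same in every library. Cd74 exceeded H2-Ab1 in 12 of 12 libraries, at a ratio of 2.01 to 3.34. H2-Ab1 and H2-Eb1 were neighbours that did not differ beyond their spread, with H2-Ab1 the higher of the pair in 6 of 12 libraries. H2-Eb1 exceeded H2-Aa in 12 of 12 (ratio 1.82 to 2.51), H2-Aa exceeded H2-DMb1 in 12 of 12, H2-DMb1 exceeded H2-DMa in 12 of 12, and H2-DMa exceeded Ciita in 12 of 12. The closest of these was H2-Aa over H2-DMb1 in vehicle library 4, at a ratio of 1.03 where the median ratio was 3.53. The order is one of FPKM and depends on the exon length by which reads are divided. H2-Aa has 3798 exon bases and H2-Eb1 1944, and their reads per library were alike, 904 to 2327 and 859 to 2157. H2-DMa has 3448 exon bases and H2-DMb1 1681, with 105 to 349 and 110 to 411 reads. These 2 steps of the order are therefore not differences in read number.

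Except for Cd74 and Ciita, the genes lie together in the major histocompatibility complex on chromosome 17 of GRCm38. H2-DMa spans 34119541 to 34139101, H2-DMb1 34153072 to 34160230, H2-Ab1 34257689 to 34269419 and H2-Eb1 34305867 to 34316674, all on the forward strand. H2-Aa spans 34282744 to 34287823 on the reverse strand. Ciita lies on chromosome 16, from 10480059 to 10528418 on the forward strand. Of the exon bases of H2-DMa, 10.4% overlap Brd2 on the other strand, and 3.45% of those of Ciita overlap Dexi on the other strand. Whether counting used strand is not given in the sources used here, so reads in these stretches could belong to either gene.

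Class II promoters are known for an X box, bound by the RFX complex, and a Y box, bound by NF-Y, which together form the platform for Ciita. RefSeq promoters (GRCm38.p6, 250 bases before to 50 after the start) were held for H2-Aa, H2-Eb1, H2-DMa and H2-DMb1. They were searched on both strands for GNAAC, part of the X box, and GATTGG, the Y box core, letters chosen after these promoters had been read. The stretch with both is shown for the alpha chain of I-A and the beta chain of I-E. H2-Aa is at chr17:34287847-34287924 on the reverse strand and H2-Eb1 at chr17:34305756-34305832 on the forward strand. Each is written along its gene, with the 2 motifs in capitals.
H2-Aa: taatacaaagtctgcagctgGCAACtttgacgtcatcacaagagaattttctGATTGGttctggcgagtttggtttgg
H2-Eb1: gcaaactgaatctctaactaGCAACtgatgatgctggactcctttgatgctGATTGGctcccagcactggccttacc
The motifs started 32 bases apart in H2-Aa and 31 in H2-Eb1. They were 32 apart in H2-DMb1 too, where the first reads GTAAC. Neither of the 2 H2-DMa promoters held the pair at 20 to 45 bases. The partner genes H2-Oa, H2-Ob and H2-Eb2 held it at 32, 29 and 31 bases. Of all 32851 promoters, 84.8% held GNAAC, 16.1% held GATTGG, 1.45% held the pair at 20 to 45 bases and 0.128% at 31 or 32. The spacings of 31 and 32 are those of the class II promoters above, so the last share is no independent measure of how rare the match is. The match describes letters in this window and was not tied to any level measured here.

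GA against vehicle was the comparison of the study, which asked how GA acts on 4NQO-driven oral carcinogenesis. All 7 class II genes had a lower mean log2 level with GA, by 0.06 to 0.27, and none of them passed the test. Of all 16847 genes, 49.1% had a lower mean, and the median of the 7 log2 fold changes was -0.18 against 0.00 for all genes. The 7 levels largely moved together between libraries, as described below, so their shared sign does not count as 7 separate results. Calls used the limits of the study, a log2 fold change of 0.58 or more in either direction with a limma adjusted p below 0.1. At these limits 0 of 16847 genes (0%) were called, and limma-voom on the recovered reads called 0 of 16106. The study, with edgeR, reported significantly changed genes at the same limits, and these calls were not reproduced here, where edgeR itself was not run. An unadjusted p below 0.05 was found for 364 genes (2.16%), and 0 of the 7 were among them. Fold changes are on the log2(FPKM + 0.1) scale, which understates the change of low genes such as Ciita.

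For H2-Aa the log2 fold change was -0.06 (standard error 0.28, 95% interval -0.66 to 0.55, limma adjusted p = 0.999987), and an exact permutation test over the libraries gave p = 0.861. For H2-Ab1 it was -0.11, with an interval from -0.56 to 0.33 that did not reach the 0.58 limit on either side. H2-Eb1 had -0.19 (interval -0.77 to 0.38) and Cd74 -0.09 (interval -0.69 to 0.51). The exchange genes had -0.27 for H2-DMa (interval -0.92 to 0.38) and -0.24 for H2-DMb1 (interval -0.90 to 0.42). Ciita had -0.18 (interval -0.87 to 0.50). Exact permutation p-values for these genes lay between 0.400 for H2-DMa and 0.861 for H2-Aa, two-sided, where 6 against 6 libraries can reach 0.00216. For 6 of the 7 genes the interval therefore still held a decrease of 0.58, and for none an increase of 0.58.

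The sign of these small differences rested on which libraries were compared. In an alternative fit, a term for Y-linked reads (the sex term) was added. H2-Aa (0.12), Cd74 (0.099), H2-Ab1 (0.060), H2-DMb1 (0.034) and H2-DMa (0.028) were then higher in mean with GA, and 2 of the 7 genes remained lower. Within the 5 libraries with Y-linked reads, the only GA library was higher than the mean of the 4 vehicle libraries by 0.53 to 0.85 for the 7 genes. Within the 7 libraries without them, 5 GA against 2 vehicle, the differences were -0.48 to -0.21. Without vehicle library 2, the mean of H2-Aa, Cd74 and Ciita was higher with GA, and without vehicle library 6 or GA library 6 that of H2-Aa and Cd74 was. Without GA library 1 the log2 fold changes were between -0.51 for H2-DMa and -0.22 for H2-Aa. With the 3 libraries high in Lipf left out, they were between -0.40 and -0.20. With a B cell term, added after seeing the data, they were between -0.65 for H2-DMb1, past the 0.58 limit but not called, and -0.25 for Cd74.

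**Figure D2:**
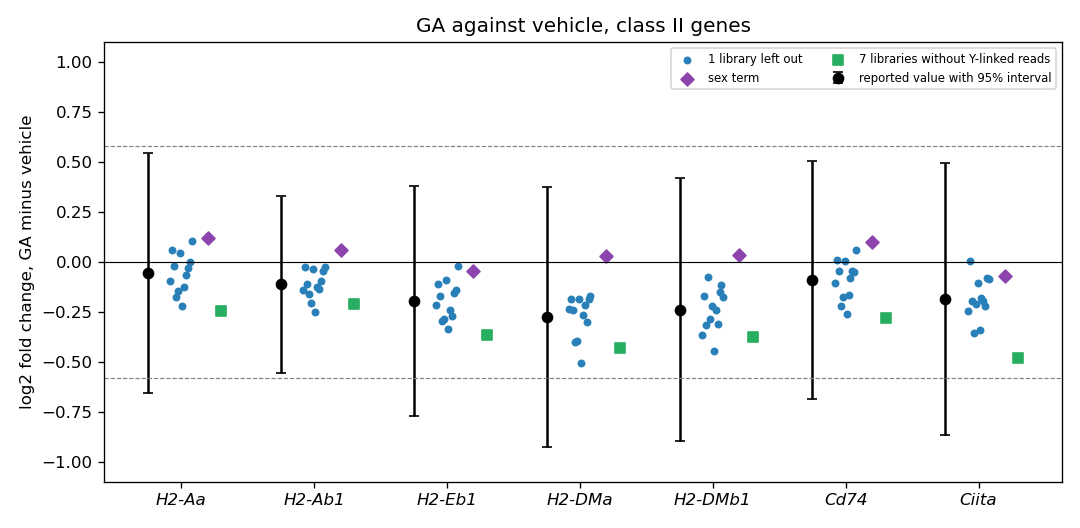
Log2 fold change (GA minus vehicle, vertical axis) of each class II gene with its 95% interval (black), the value with each of the 12 libraries left out (blue), with a term for Y-linked reads (purple) and in the 7 libraries without such reads (green). Dashed lines mark 0.58 in either direction; every black interval covers 0, and the purple values are above 0 for 5 of 7 genes.

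Other genes of the pathway did not pass the test either. Of 6 partner genes, 5 were on a row and 3 were tested, of which 2 were higher and 1 lower in mean with GA. They were H2-Oa (0.31), H2-DMb2 (0.23) and H2-Ob (-0.22), and H2-Oa and H2-Ob, which form the H2-DO modulator of H2-DM, were both below 0.5 FPKM in every library. Of 9 genes for the proteases and the reductase that prepare peptides and trim the invariant chain, 3 were higher and 6 lower, at a median of -0.10. Ctss, the main protease of invariant chain breakdown, had -0.24, Ctsb -0.30 and Lgmn 0.14. The lowest unadjusted p of that list belonged to Sppl2a, which clears the last membrane stub of the invariant chain. It is singled out here after its values were seen. Sppl2a had 12.2 ± 1.22 FPKM (SD) with vehicle and 10.5 ± 0.771 FPKM with GA, a log2 fold change of -0.22 (standard error 0.09, limma adjusted p = 0.999987), and its 6 GA libraries all lay under the vehicle median.

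Among 6 tested genes of class II turnover and costimulation, 3 were higher and 3 lower. Marchf1, the ligase that sends class II to breakdown, had 0.07, Cd40 -0.34 and Cd80 0.31, the last with 5.76 FPKM in GA library 6 and at most 1.59 in the other 11. The 7 factors of the class II promoter platform, 3 higher and 4 lower, had a median of -0.0093, with Rfx5 at -0.03, Nfyc at -0.08 and Nfya at 0.19. Of 11 tested genes of the interferon gamma axis, 1 was higher and 10 lower, at a median of -0.33. Ifngr1 had -0.28, Ifngr2 0.02 and Cxcl10, a chemokine induced by interferon, -1.32 (standard error 1.05). Jak2, a kinase of the interferon gamma receptor, was the only gene of this list with an unadjusted p below 0.05, at -0.35 (standard error 0.12, limma adjusted p = 0.999987), and it is named after its values were seen. All 8 MHC class I genes were lower in mean, at a median of -0.22, with H2-K1 at -0.09, Psmb8 at -0.38 and Tapbp at -0.07. None of these lists had a gene called.

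Of the cell types that carry class II, the 15 macrophage genes summed to 86.8 to 478 FPKM with vehicle and 67.5 to 364 FPKM with GA, with 4 higher and 11 lower in mean and a median of -0.17. Adgre1 had 0.10, Cd163 0.39 and Cd14 -1.02. The 13 dendritic cell genes summed to 11.7 to 20.4 FPKM with vehicle and 6.08 to 26.7 FPKM with GA, with 5 higher and 8 lower and a median of -0.04. Flt3, the receptor that dendritic cells depend on, had -0.41 and the lectin Clec10a 0.72. No gene of either list was at 0 in any library. B cell genes were near the floor: the 8 listed summed to at most 1.61 FPKM, 7 of them were at 0 in some libraries, and 5 passed the filter. Cd79a, a chain of the B cell receptor complex, had 0.0498 FPKM with vehicle and 0.215 with GA in mean, a log2 fold change of 1.04 (standard error 0.38, limma adjusted p = 0.999987).

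Of the 7 genes, those other than H2-DMb1 moved together from library to library, and H2-DMb1 followed them less closely. Over the 15 pairs that leave out H2-DMb1, Pearson's r of log2 levels across the 12 libraries was 0.81 to 0.99 (median 0.88). The closest pair was H2-Aa and Cd74, the I-A alpha chain and the invariant chain. Their r was 0.99 in all libraries, in the vehicle group and in the GA group alike, and the ratio of Cd74 to H2-Aa stayed between 5.27 and 6.19 while H2-Aa varied 3.11-fold and Cd74 3.05-fold between libraries. H2-Aa and H2-Ab1, which form 1 protein, had r = 0.94, and H2-Aa and H2-Eb1 0.95. Ciita had r = 0.81 to 0.86 with the other genes apart from H2-DMb1, and H2-DMa 0.81 to 0.89. These values share the libraries and are given as a description. Against all genes, H2-Ab1 correlated with H2-Aa, H2-Eb1, H2-DMa, Cd74, Ciita and H2-DMb1 at the 98.4th percentile or higher, but with 12 libraries 0 of 16846 genes (0%) passed an adjusted p of 0.05 in the permutation test, and 438 (2.60%) had an unadjusted p below 0.05 with positive r.

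H2-DMb1 departed from the others most clearly in vehicle library 4. Its r with the other 6 genes was 0.37 to 0.62, and without that library it was 0.65 to 0.84. The 15 pairs that leave out H2-DMb1 had 0.80 to 0.99 without it, so 1 library accounts for only part of the departure. Within the vehicle group, library 4 included, r of H2-DMb1 with the other 6 was -0.29 to 0.19. Within the GA group it was 0.78 to 0.92. In vehicle library 4 the ratio of H2-DMb1 to H2-Ab1 was 0.349, against 0.115 to 0.195 in the other 11. H2-DMb2 is a near copy of H2-DMb1, and its reads can be split between them or dropped when only uniquely mapped reads are counted, so both levels are uncertain. In vehicle library 4, H2-DMb2 was at 0.446 FPKM and the ratio of H2-DMb1 to H2-DMb2 was 23.7, where the other 11 libraries had 2.66 to 9.05. The part of this copy in the high H2-DMb1 value was not tested.

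**Figure D3:**
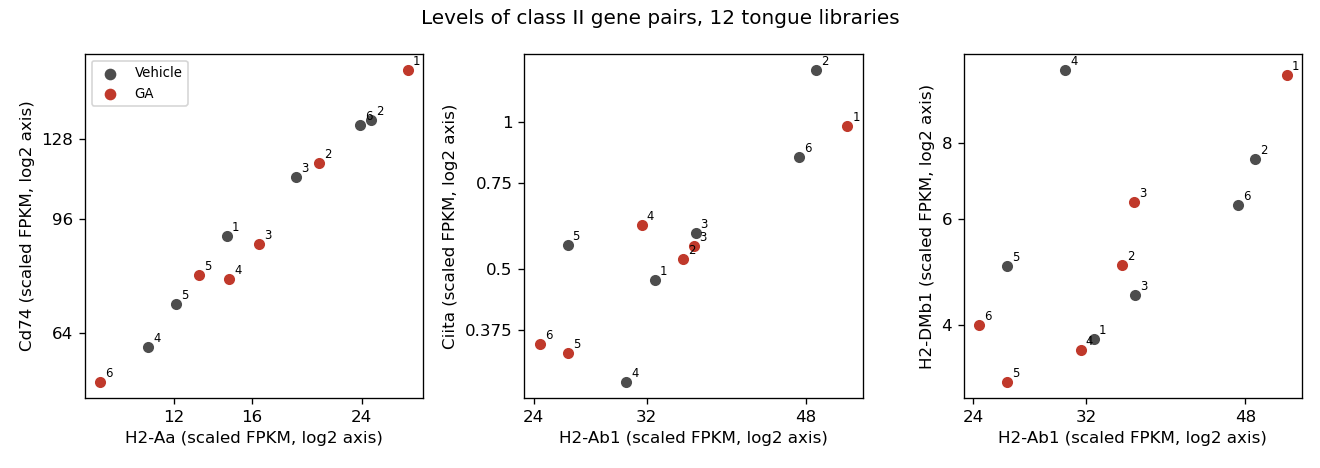
Levels of Cd74 against H2-Aa, Ciita against H2-Ab1 and H2-DMb1 against H2-Ab1 in scaled FPKM on log2 axes, 1 dot per library numbered by replicate, vehicle in grey and GA in red. The first pair lies on a line (r = 0.99), the second follows more loosely (r = 0.86), and in the third panel vehicle library 4 lies away from the rest, as high in H2-DMb1 as GA library 1 at a much lower H2-Ab1.

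Over all 12 libraries, Pearson's r with dendritic cell genes was higher than with macrophage genes for each of the 7. The difference was not tested, neither passed the test over all genes, and the order turned in other settings. For H2-DMb1, Spearman's rho was 0.43 with dendritic cell and 0.57 with macrophage genes, and without the libraries high in Lipf its r was 0.55 and 0.82. Without the 2 libraries farthest from the median of each score, the macrophage r was the higher for all genes but Ciita. A list's score was the mean of its tested genes' log2 levels. Against the dendritic cell score, r over 12 libraries was 0.78 for both H2-Aa and H2-Eb1, 0.76 for Cd74, 0.73 for Ciita, 0.72 for H2-Ab1, 0.56 for H2-DMa and 0.52 for H2-DMb1. Spearman's rho was 0.43 to 0.73. Permutation p-values ran from 0.00161 for H2-Aa to 0.0791 for H2-DMb1, and adjusted over all genes they were 0.375 to 0.408. Of 16834 genes, 0 (0%) were called and 892 (5.30%) had an unadjusted p below 0.05 with positive r, among them 5 of the 7 class II genes. Within the vehicle group r was 0.19 to 0.81 and within the GA group 0.72 to 0.98. The 2 libraries farthest from the median score were GA libraries 6 and 1, the lowest and highest for most class II genes, and without them r fell to 0.15 to 0.66. The relation therefore rested in part on those libraries.

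The single marker genes named here with their r were picked after the values were seen. Among dendritic cell genes, Wdfy4, which conventional dendritic cells need to cross-present antigen, had r = 0.75 with the mean log2 level of the 7 genes. Flt3 and the transcription factor Irf8 had 0.60, the lectins Cd209a and Clec10a 0.59 and 0.57, and Zbtb46, a factor of conventional dendritic cells, 0.52. Of the cross-presenting subset, the factor Batf3 had 0.51 and the receptors Xcr1 and Clec9a had -0.15 and -0.06. Mean levels were low on both sides: 0.109 FPKM for Xcr1, 0.210 for Clec9a, 0.174 for Flt3, 0.176 for Batf3 and 0.376 for Wdfy4. The other 4 genes (Itgax, Ccr7, Cd207 and Mycl) had 0.27 to 0.40. Wdfy4 was at 0.742 FPKM in GA library 1, 0.732 in vehicle library 2 and 0.185 in GA library 6, where most class II genes were high, high and low, but at 0.547 in vehicle library 5, where class II was low. The markers were thus not uniform in how they followed class II.

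Against the macrophage score, r was 0.16 for H2-DMa to 0.40 for H2-DMb1, and rho 0.18 to 0.57. Adjusted permutation p-values were 0.452 to 0.808, and 0 of the 7 genes were called where 266 of 16832 genes (1.58%) were. At an unadjusted p below 0.05 with positive r, 0 of the 7 passed against 1773 genes (10.5%). The groups differed in sign for most genes: r was -0.48 to 0.08 within vehicle and 0.47 to 0.79 within GA, a difference that was not tested. Vehicle library 5 and GA library 2, both high in Lipf, had the highest macrophage scores and class II levels below those of vehicle libraries 2 and 6 and GA library 1, and without them r was 0.45 to 0.68. Without all 3 libraries high in Lipf it was 0.48 to 0.82. With the skeletal muscle score held, r was 0.021 to 0.14 for 6 of the 7 genes (H2-Aa 0.060, H2-Ab1 0.033) and 0.41 for H2-DMb1. Lyz2 and Cd14 were left out of the score in an alternative chosen after seeing the data, and 0 of the 7 were called there either. Of the single genes, Adgre1 (F4/80), Csf1r and Mrc1 had r of 0.51 to 0.52 with the mean of the class II genes, whereas Cd68 had 0.08 and Cd14 -0.29.

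**Figure D4:**
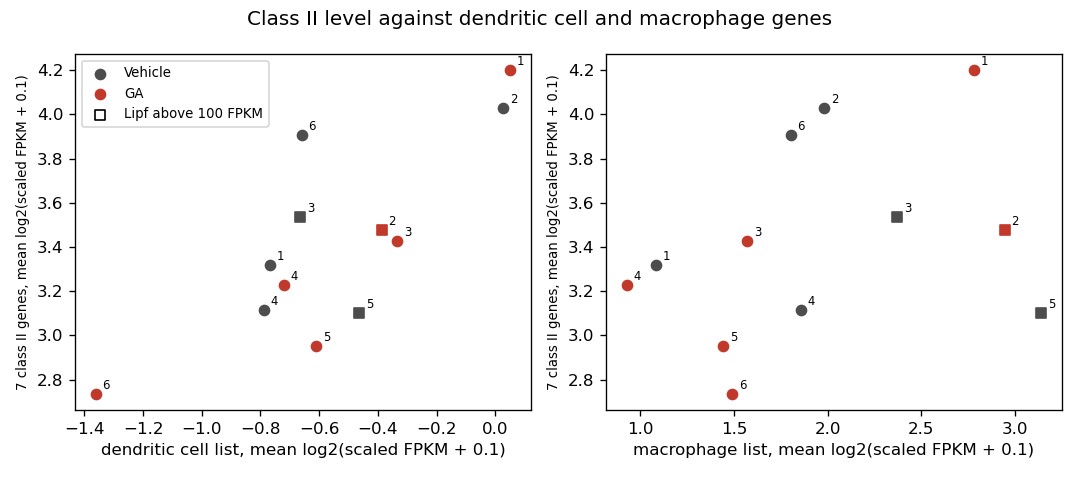
Mean log2 level of the 7 class II genes (vertical axes) against that of the dendritic cell list (left) and macrophage list (right), 1 point per library numbered by replicate, squares marking Lipf above 100 FPKM. GA library 6 is low and GA library 1 high on both axes at left, and at right vehicle library 5 and GA library 2 lie far right, the former with a low and the latter with a middling class II level.

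B cell genes followed class II weakly, with r of 0.01 to 0.29, adjusted p = 1.0 in the permutation test for all 7 and 0 of 16842 genes called (0%). Mouse T cells carry no class II at rest, and T cell genes had r of 0.44 for H2-DMa to 0.74 for H2-Ab1 and rho of 0.34 to 0.80. Their adjusted permutation p was 0.994 for all 7, and 0 of 16839 genes were called. At an unadjusted p below 0.05 with positive r, 6 of the 7 passed where 410 genes (2.43%) did, and without GA libraries 3 and 1 r was 0.47 to 0.76. The interferon gamma axis gave r of 0.19 to 0.63, skeletal muscle 0.11 to 0.57 and tongue epithelium -0.46 to -0.11. For MHC class I genes, H2-DMb1 had r = 0.74 and the other 6 genes 0.20 to 0.44. For neutrophil genes, H2-DMb1 had 0.34 and the other 6 were negative, down to -0.32. In all, 63 correlations with 9 lists were computed and 0 passed an adjusted p of 0.05. The share of all genes called at that limit with positive r was 0% for the interferon gamma axis, 11.4% for skeletal muscle, 5.14% for tongue epithelium, 0.0594% for MHC class I and 0.95% for neutrophil genes. The part of tissue makeup in any of them was not tested.

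**Figure D5:**
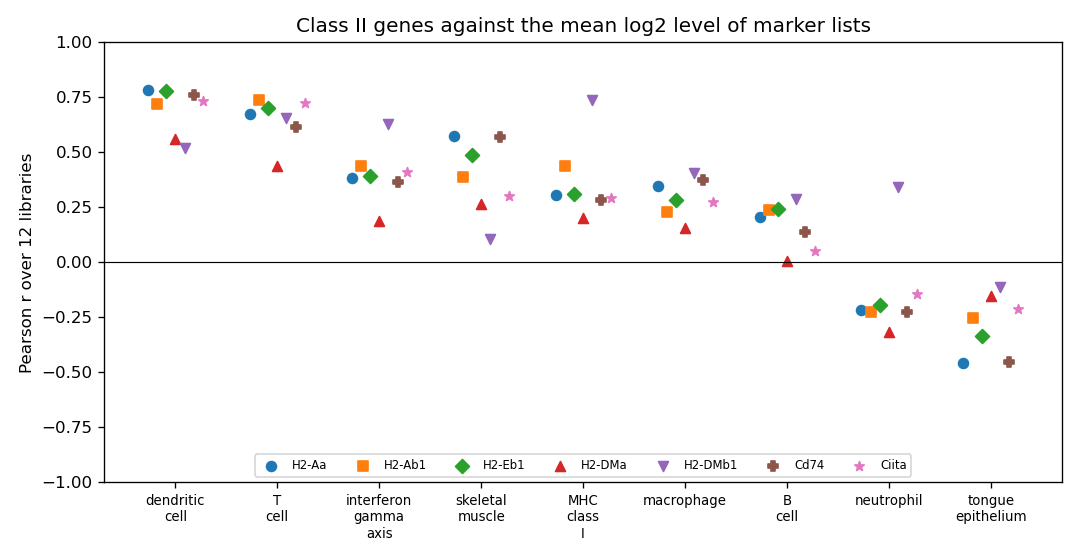
Pearson's r over 12 libraries (vertical axis, -1 to 1) of each class II gene, by symbol, with the mean log2 level of 9 marker lists. Values are highest for the dendritic cell and T cell lists and below 0 for all 7 genes with the epithelial list, and H2-DMb1 stands apart for the MHC class I and neutrophil lists.

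Of 12156 other genes that averaged 1 FPKM or more, the 10 most like the mean of the class II genes were Psme2 (r = 0.83), Rbpj-ps3, Gbp4 (both 0.82), Cwf19l2, Trim21 (both 0.80), Retnla, H2-T10 (both 0.79), Cxcr6 (0.78), Psmb10 and Armh4 (both 0.77), over 12 libraries. Psme2 is a subunit of the proteasome activator PA28, Psmb10 a subunit of the immunoproteasome, Gbp4 a guanylate-binding protein, Trim21 a cytosolic antibody receptor and Cxcr6 a chemokine receptor of T cells. Psme2 had 23.7 FPKM with vehicle and 22.0 with GA in mean. Retnla, a secreted protein made by alternatively activated macrophages, had 19.8 FPKM with vehicle and 33.2 with GA. These genes were ranked by likeness alone, with no test.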

How the data were processed

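Tongue RNA was sequenced in 6 vehicle and 6 GA libraries. After FastQC 0.11.7, the authors used HISAT2 with mm10 as the genome and featureCounts for uniquely mapped reads, and deposited FPKM values, 1 table of 55463 rows per library. Rows without a gene name (41.4%, holding 16.2% to 25.5% of FPKM) were left out. Reads were recovered from steps between low values and GENCODE M21 exon lengths: 97.8% to 98.4% of low values came out whole within 0.02 of a read, and totals were 18040171 to 25192493.

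FPKM were brought to a common scale with trimmed means of log ratios (factors 0.913 to 1.08) and filtered at a mean of 0.1 FPKM. They were compared with limma 3.58.1 (R 4.3.3) on log2(FPKM + 0.1), since the deposited FPKM are not counts. The recovered reads were tested with limma-voom as an alternative. The test of the study, edgeR, was not run on them. Single genes were also tested by exact permutation of 924 assignments. Correlations used 100000 permutations and Benjamini-Hochberg adjustment over all tested genes. Scripts were tested on simulated data. Genes outside the 7 were named by rule: from each list the first tested gene and those with the lowest and highest log2 fold change, and the 10 genes most like the mean of the 7. Sppl2a, Jak2 and the single marker genes given with their r were named outside that rule, after their values were seen. Intervals cover the spread between libraries. The members, lists and alternatives were chosen with earlier results of these data known. No pairing of the groups by replicate number was detected: correlations of deviations between same-numbered libraries were -0.37 to 0.08.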

Additional observations from a re-analysis of the deposited data

Results flagged for a closer look

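In 46 sets of 6 libraries (class II genes, their ratios to H2-Ab1 and list scores, in each group), 4 held a library far from the others by Dixon's test, where chance gives about 1 in 20. H2-DMa in GA library 1 was at 4.70 FPKM, the next GA library at 2.25 (gap over range 0.744). Vehicle library 4 had the lowest log2 ratio of Cd74 to H2-Ab1 of its group, 1.00 against 1.44 in the next (0.705), and the lowest of H2-Eb1 to H2-Ab1, -0.25 against -0.01 (0.628). Vehicle library 1 had the lowest interferon gamma axis score of its group, 1.05 against 2.57 (0.722).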

How the results depend on the processing

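Across 32 alternatives to the comparison of GA with vehicle, 0 of the 7 genes were called in any. The count of all genes called was 328 at an unadjusted p below 0.1, 364 at an unadjusted p below 0.05 with no fold limit, 2 in libraries without Y-linked reads only (Gm25290 and Gm23390, named after their values were seen) and 0 to 1 with each library left out (Gm25290 without vehicle library 4). The number of class II genes lower in mean was 2 with the sex term and 4 to 7 with each library left out.

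Of 223 log2 fold changes under alternatives, 13 turned sign. With the sex term these were H2-Aa (0.12), H2-Ab1 (0.060), H2-DMa (0.028), H2-DMb1 (0.034) and Cd74 (0.099). With single libraries left out, H2-Aa ranged from -0.22 to 0.10, Cd74 from -0.26 to 0.062 and Ciita from -0.36 to 0.0048. Median of ratios scaling moved the share of all genes lower in mean from 49.1% to 53.1%, with all 7 class II genes still lower. With the B cell term, added after seeing the data, H2-Aa was -0.27, H2-Eb1 -0.50 and H2-DMb1 -0.65, and with the epithelium term, also added, H2-Aa was -0.25 and Cd74 -0.29. A filter at 1 FPKM left out Ciita.

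Under the alternatives to the correlations, 0 of the 7 genes were called with macrophage, dendritic or B cell genes. With dendritic cell genes no r turned sign in 133 values, and with macrophage genes 1 of 140 did (H2-DMa, from -0.072 to 0.36 with single libraries left out). With B cell genes 14 of 133 did: H2-DMa was -0.039 with pseudocount 1, -0.043 with the muscle score held and -0.031 without the libraries high in Lipf. Ciita was -0.040 with pseudocount 1 and -0.00044 with the muscle score held. With single libraries left out, these r were -0.30 to 0.18 for H2-DMa, -0.083 to 0.32 for Cd74 and -0.13 to 0.40 for Ciita.

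A fit with the replicate block called 0 genes and 0 of the 7, with 244 genes at an unadjusted p below 0.05, and the 7 log2 fold changes were the same as without it, H2-Aa at -0.06. No library correlated best with its own number in the other group (0 of 6), so no pairing by number was detected. With 6 numbers such a check cannot show that none existed. Ciita rested on as few as 65 reads and H2-DMa on 105, against at least 904 for H2-Aa. Their within-group SDs of log2(FPKM + 0.1) were 0.56, 0.56 and 0.53, on a scale that narrows the spread of low genes such as Ciita. The likeness of these SDs therefore does not show that low read numbers added no spread.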
